A study of Drosophila melanogaster with 24 samples.

Results

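The probes described here are the array spots that were brightest in the heads of adult male fruit flies. They were chosen by a rule on signal alone. Their mean log2 signal in male heads had to exceed the highest of the other 5 group means by at least 1. Of 22575 spots, each read as 1 probe, 198 met the rule, which is 0.877%. The rule used the signal of all 24 samples, so every value that sets heads against another group below is a description and has no test.

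The study measured RNA of Drosophila melanogaster, isogenic line WI89, on microarrays and, by its title, asked how alternative splicing varies with sex, stage and tissue. The 6 groups had 4 samples each, 2 labelled with the dye Cy3 and 2 with Cy5. The groups were heads of adult males aged 24 to 48 h, abdomens of adult males of the same age, mixed-sex embryos, mixed-sex pupae, female pupae and male pupae. Embryos were collected over 24 h of egg laying, so their ages were mixed. Pupae were picked 0 to 1 h after pupariation and then aged at 25 °C for another 12 h. For the mixed-sex pupae, equal amounts of RNA from males and females were combined. All samples shared the isogenic line, and no female heads and no pupal or embryonic heads were among them. Whether the 4 replicates of a group came from separate animals is not stated, and the p-values reflect only how far these samples differ, a spread that may be technical.

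A fly head holds the brain, the compound eyes, the antennae and mouthparts, and also muscle, cuticle and fat body. The photoreceptors of the eye make large amounts of the opsins and other proteins of phototransduction. Neurons carry ion channels and synaptic proteins whose transcripts are often spliced into several forms. An abdomen holds gut, reproductive organs, fat body, muscle and cuticle, so the fat body, muscle and cuticle are found in both dissected parts. The tables used here name no gene for any probe, so none of these genes could be looked up and the tissue labels could not be checked against marker genes. Several probes may belong to 1 gene, and a change in the amount of a transcript cannot be told apart from a change in its splicing. In such bulk samples, fewer cells of a type and less RNA per cell cannot be told apart either.

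Values are log2 signals after background correction, an offset of 50 and quantile normalisation. The offset draws dim probes together, so a difference in log2 signal understates a change that ends near the floor. The median over all probes was 6.21 in every sample, and the upper quartile of the probes' mean signals was 6.63. Before normalisation, Cy3 samples had a median signal of 60.8 to 144 scanner units above local background and Cy5 samples one of 5.19 to 61.7 units. Precision is limited by how few arrays there were.

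The labels do not say which samples shared an array. Identical patterns of marked spots in samples of opposite dye put the 24 samples on 12 arrays, with a Cy3 and a Cy5 sample on each, and the array partners named here are inferred from these patterns. Head replicate 1 shared its array with abdomen replicate 3, and head replicate 2 with abdomen replicate 2. Head replicate 3 shared its array with female pupae replicate 3, and head replicate 4 with embryo replicate 2. These 4 partners of the heads stood apart from the rest of their groups at the head-brightest probes, and results that rest on them are given with and without them.

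Over the 198 probes the median log2 signal was 8.61, 8.73, 8.64 and 8.71 in head replicates 1 to 4. It was 6.43, 6.74, 6.72 and 6.42 in the abdomens, and 6.31, 6.75, 6.42 and 6.42 in the embryos. It was 6.32, 6.32, 6.38 and 6.31 in mixed-sex pupae, 6.44, 6.38, 6.67 and 6.38 in female pupae, and 6.38, 6.34, 6.29 and 6.34 in male pupae. The 4 head samples lay close together, and no other sample came near them. Among the other 20 samples the 4 highest medians belonged to the 4 partners of the heads, at 6.67 to 6.75.

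**Figure D1:**
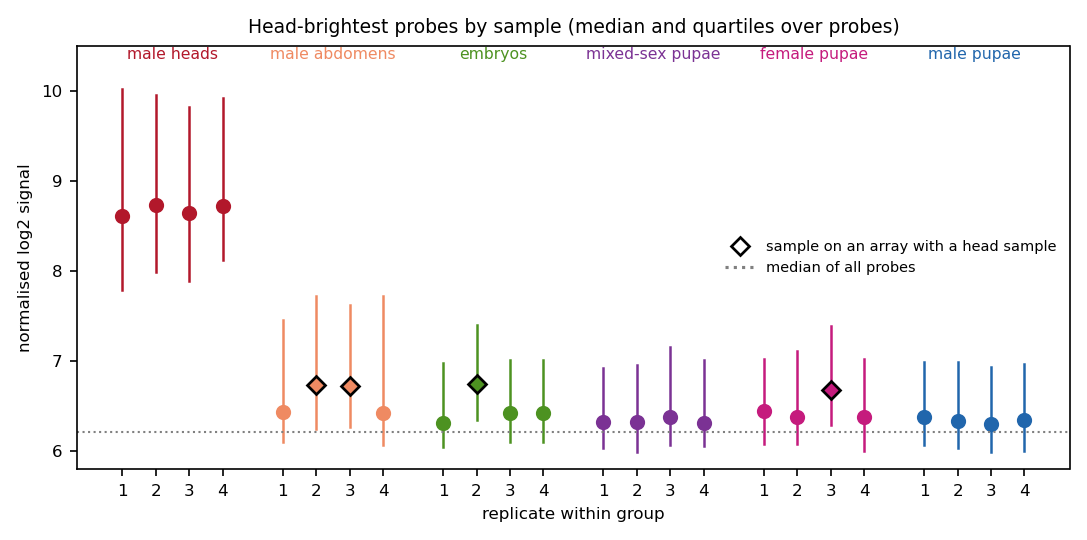
Normalised log2 signal (vertical axis) of the 198 head-brightest probes in each of the 24 samples (horizontal axis, replicates within groups); points are medians over the probes, lines run from the lower to the upper quartile, and the dotted line is the median of all probes. Diamonds mark the 4 samples that lay on an array with a head sample, whose medians of 6.67 to 6.75 lie above those of the other samples of their groups.

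The head means themselves ran from 6.92 to 13.20, with a median of 8.70. The margin over the highest other group mean ran from 1.01 to 5.30, with quartiles of 1.18 and 2.16 around a median of 1.50. The margin was at least 2 for 57 probes, at least 3 for 23 and at least 4 for 10. Just inside the threshold stood probes 1169, 10523, 13337, 14242 and 15524, with margins of 1.01 or 1.02. Just outside it stood probes 11670, 1056, 15970, 10286 and 20663, each with a margin of 0.99, so the boundary falls within a continuous range.

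The label that these probes are bright in heads alone held for part of them. The highest other group mean lay below the median probe for 39 of the 198, so that no other group stood out from the floor. For another 51 it lay between the median probe and the upper quartile. For the remaining 108 probes (54.5%) at least 1 other group lay above the upper quartile, and for 42 of these above 8. The 39 probes near the floor elsewhere had a median head mean of 7.73 and the 108 brighter ones of 9.52. Bright heads did not always go with bright other groups: of the 5 probes with the highest head means, probe 5712 had no other group mean above 7.56, while the other 4 were bright elsewhere too.

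Probe 5284 shows that end of the range. It had the highest head mean, at 12.97, 13.42, 12.97 and 13.42. It also had the highest level of all 198 probes in each of the other groups, with means of 12.04 in abdomens, 10.96 in embryos, 11.07 in mixed-sex pupae, 11.23 in female pupae and 10.92 in male pupae. Its margin was 1.16. Probe 22251 followed with a head mean of 13.14 and an abdomen mean of 12.02. The dimmest members were probes 16500 and 17311, with head means of 6.92 and 7.02 and no other group mean above 5.92.

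The group closest to heads was the abdomens for 93 probes, the embryos for 59, female pupae for 35, mixed-sex pupae for 9 and male pupae for 2. With the 4 partners of the heads left out, the same 198 probes had abdomens closest at 87, embryos at 54, female pupae at 33, mixed-sex pupae at 18 and male pupae at 6. The groups that held a partner lost places and the 2 groups without a partner gained them. The median margin was 1.54 without the partners and 1.50 with them, and the margin was larger without them for 154 of the 198 probes. Probes 10523, 11135 and 9542 fell below the margin of 1 without the partners, at 0.80, 0.92 and 0.99.

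**Figure D2:**
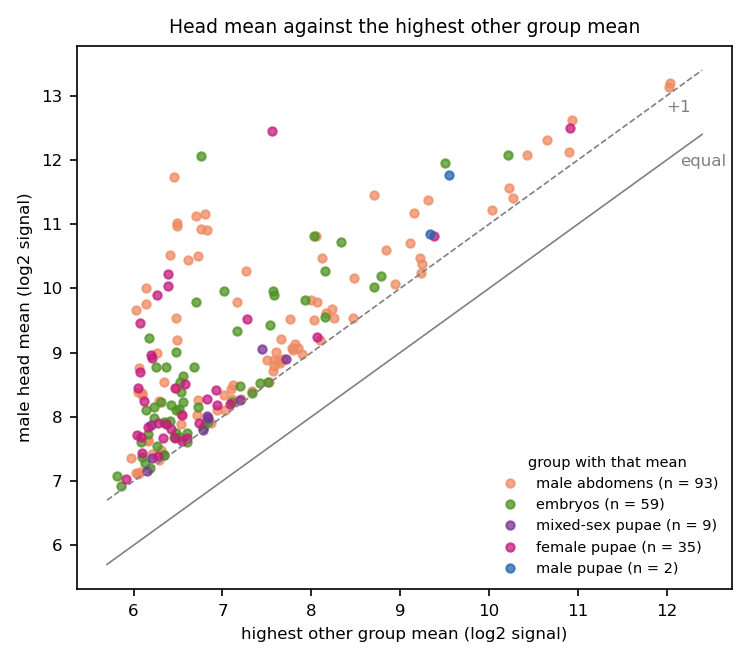
Mean log2 signal in male heads (vertical axis) against the highest mean among the other 5 groups (horizontal axis) for the 198 probes, coloured by the group with that highest mean; the solid line marks equal means and the dashed line the margin of 1 that the rule requires. Probes with the largest margins lie at the left, near the floor of the other groups, and the 2 probes with the highest head means, 5284 and 22251, lie close to the dashed line at upper right.

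Every head sample lay above every one of the other 20 samples for 187 of the 198 probes. Over all probes this held for 2.84%, and nothing is read from the comparison because the rule used it. The median gap between the lowest head sample and the highest other sample was 0.89. The other 11 probes overlapped. In 8 of them a single head sample fell among the others, as for probe 19365 with 12.01, 11.72, 12.01 and 10.52 in heads and a highest other sample of 10.98. For 3 of them only head replicate 1 was high.

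Those 3 probes entered the list through 1 sample. Probe 9219 had 10.76 in head replicate 1, against 5.94, 5.89 and 5.94 in the other heads. Probe 7505 had 10.23 in that sample, against 6.49, 6.32 and 6.25. Probe 20667 had 8.31 in it, against 6.82, 6.56 and 6.73. For each of the 3, the highest of the 20 other samples was abdomen replicate 3, which lay on the same array, at 6.95, 6.64 and 6.86. Probes 9219 and 7505 had the largest SD among the 4 heads, 2.42 and 1.94.

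Leaving out 1 head sample and applying the rule again changed the list at its edge. Between 6 and 17 of the 198 probes dropped out, the largest number without head replicate 4. Between 10 and 20 other probes entered, the largest number without head replicate 1. Of the 198, 166 stayed whichever head sample was left out. The SD over the 4 heads had a median of 0.30 for these probes, against 0.13 over all probes. Probe 18218 had the smallest, with 7.97, 7.93, 7.97 and 8.06 in heads and a margin of 1.15. Head replicate 1 was the lowest of the 4 heads at 101 probes and head replicate 4 the highest at 88.

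The 8 probes with the largest margins were near the floor in most groups. Probe 11882 had 11.60, 12.54, 11.72 and 12.36 in heads. It had 6.01, 7.25, 7.40 and 5.97 in abdomens, 8.02, 6.12 and 6.13 in embryo replicates 2 to 4, and 7.49, 6.13 and 5.94 in female pupae replicates 3, 2 and 4, with the marked spots of embryo replicate 1 and female pupae replicate 1 left out. Mixed-sex and male pupae ranged from 5.90 to 6.51. Its margin of 5.30 was the largest of the list, and the 4 values between 7.25 and 8.02 outside the heads are those of the 4 samples that shared an array with a head.

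Probe 20039 had the same arrangement. Heads gave 11.64, 11.96, 11.86 and 11.48. The partners of the heads gave 6.98 and 6.87 in abdomens, 7.25 in embryos and 7.19 in female pupae, and the other 16 samples lay between 5.88 and 6.11. Without the partners its margin was 5.67, against 5.28 with them.

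Probe 5712 differed from these in having signal in pupae. Its heads gave 12.10, 12.29 and 12.97, with replicate 2 left out as marked. Mixed-sex pupae gave 6.85, 7.20, 7.10 and 7.18, and male pupae 6.75, 6.80, 6.78 and 6.53. Female pupae gave 7.18, 7.69, 8.15 and 7.22, the highest again being the partner of a head. All 12 pupal samples lay above the abdomens and embryos that did not share an array with heads, which ran from 5.90 to 6.17.

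Probes 22433 and 5520 had smaller rises in the partners. For probe 22433 the heads gave 10.64, 11.19, 10.90 and 11.32, and the abdomens 6.42, 6.64, 6.49 and 6.40. For probe 5520 the heads gave 10.32, 11.21, 10.59 and 11.79, and the abdomens 6.44, 6.59, 6.54 and 6.39. Over the 20 samples that are not heads, probe 5520 was the probe most like probe 22433 (Pearson r = 0.84). The probes most like 11882 and 20039 were 5679 and 22567, with r between 0.96 and 0.99. These samples share arrays, dyes and normalisation, and the 4 partners carry much of the range, so the r values are descriptions.

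Probes 9796, 19299 and 2263 completed the 8. Their head means were 11.13 ± 0.73, 11.16 ± 0.18 and 10.92 ± 0.32 (SD, n = 4 each). Their highest other group was the abdomens, at 6.71, 6.80 and 6.75. Spot 9796 touches spot 9797 on the array, which is also on the list and has another pattern, described with the abdomens.

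**Figure D3:**
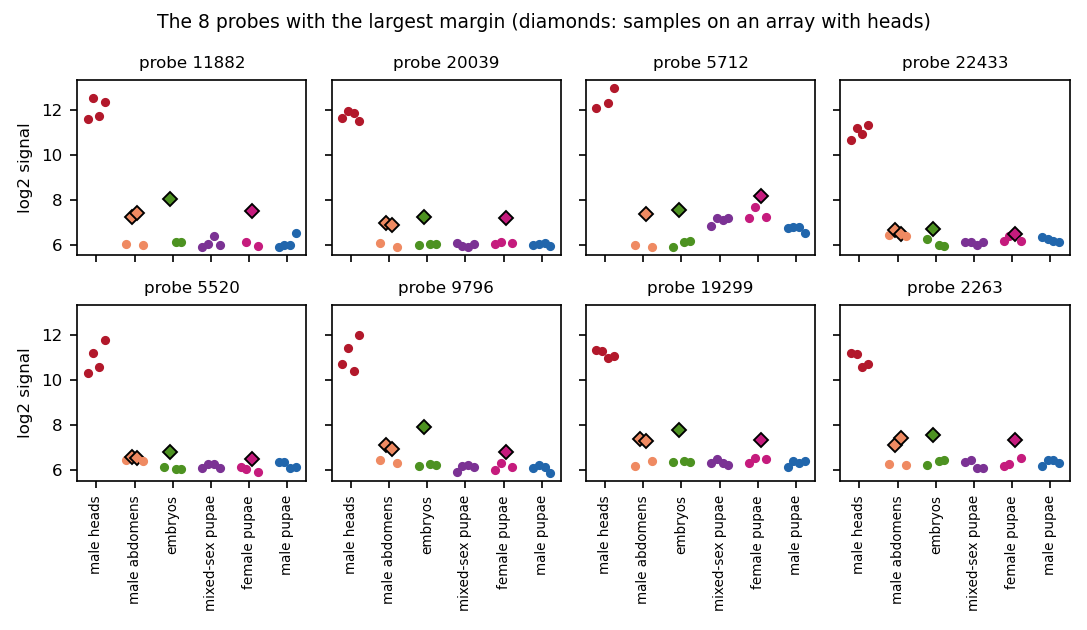
Log2 signal (vertical axis) of the 8 probes with the largest margins in each sample, by group (horizontal axis), 1 point per sample; diamonds mark the 4 samples on an array with heads. Outside the heads most points lie near the floor of about 6, and for probe 11882 the diamonds lie between 7.25 and 8.02.

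Sharing an array with heads was then tested. The contrast set the 4 partners of the heads against the other samples of their own groups, in a limma model with group means, dye and a term for the shared array, over all 22575 probes. The rule averaged over the samples of a group and did not use this difference, although the heads it did use lay on the same 4 arrays. Of the 198 probes, 12 had a higher signal in the partners at a limma adjusted p under 0.05 and 0 had a lower one. Over all probes 13 passed, which is 0.0576%, so 12 of those 13 were head-brightest probes. The other was probe 11923, chosen for mention after its value was seen, which was at 9.71 in heads and 10.18 to 10.41 in the other groups.

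The difference followed the margin. Its median was 0.76 for the 23 probes with a margin of 3 or more, 0.27 for the 34 with a margin of 2 to 3, 0.14 for the 42 between 1.5 and 2 and 0.09 for the 99 below 1.5. Of the 12 probes that passed, 11 had a margin above 3. The partners were higher at 173 of the 198 probes, with a median of 0.18. Over all probes they were higher at 10925 of 22575, with a median of -0.00. An unadjusted p under 0.05 was found at 66 of the 198, all of them higher. It was found at 1236 of all probes (5.47%), and 713 of these were higher.

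Probe 5679 had the largest such difference, 1.79 (SE 0.10, limma adjusted p = 3.26e-09). Its partners of heads gave 7.63 and 7.67 in abdomens, 8.27 in embryos and 7.79 in female pupae. The other samples gave 6.01 and 6.01 in abdomens, 6.05, 6.19 and 6.18 in embryos and 6.10, 6.05 and 6.22 in female pupae. Each partner lay at least 1 log2 unit above the rest of its group. Probe 11882 had a difference of 1.53 (SE 0.18, limma adjusted p = 0.00048) and probe 4856, the dimmest of the 12 in heads at 8.37, one of 0.55 (SE 0.09, limma adjusted p = 0.0179).

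The count of 12 rested in part on single samples and on the scaling. It was 7 without embryo replicate 2, 19 without head replicate 4, and 1 when samples were scaled to their 75th percentile. With that scaling 0.00443% of all probes were called. Shares over all probes are not given for the counts with a sample left out.

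**Figure D4:**
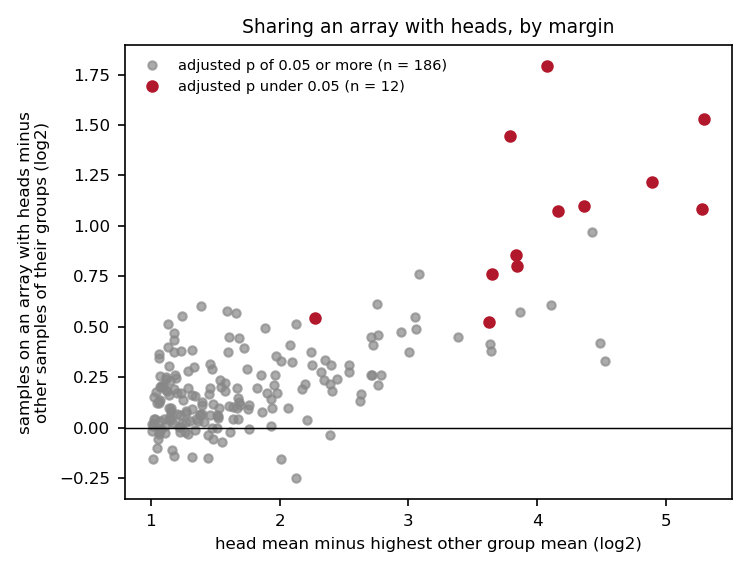
Difference in log2 signal between the 4 samples on an array with heads and the other samples of their groups (vertical axis, from the limma model) against the margin of the head mean over the highest other group mean (horizontal axis), 1 point per head-brightest probe; red points have an adjusted p under 0.05. The 12 red points all lie above 0, and 11 of them have a margin above 3.

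The same was read on arrays left out of the group means that chose the probes, although all 24 samples had been normalised together. For each of the 4 arrays with a head, both of its samples were left out, the rule was applied to the other 22, and the array was read at the probes so chosen. The head sample left out lay at least 1 above the highest other group mean at 138 of 206 probes for head replicate 1, 172 of 197 for replicate 2, 167 of 212 for replicate 3 and 153 of 197 for replicate 4. It lay above that mean at 206, 194, 209 and 190 of them. Shares over all probes were not computed for the head left out.

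The partner left out lay above the mean of the samples of its group without a head at 70.9% of the probes for abdomen replicate 3 and at 46.4% of all probes. For abdomen replicate 2 the shares were 74.6% and 49.0%, for female pupae replicate 3 they were 79.7% and 49.8%, and for embryo replicate 2 they were 86.8% and 49.7%. At the probes with a margin of 2 or more in the remaining samples, the median excess of the partner was 0.27, 0.33, 0.42 and 0.54 on the log2 scale. On the linear scale of the normalised signal this excess was a median of 2.66%, 2.15%, 4.34% and 4.80% of the normalised head signal, less the offset. The normalisation put Cy3 and Cy5 samples of unlike raw signal on 1 scale, so these are not shares of the raw head signal on the array. Heads were labelled with Cy5 on 2 of these arrays and with Cy3 on the other 2, and the partners were higher on all 4.

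Other lists of probes chosen in the same way had such partners too. At the 180 probes brightest in abdomens, the 4 samples that shared an array with abdomens had a median excess of 0.16 to 0.39 over the rest of their groups, against -0.09 to 0.13 for the other 16 samples. At the 86 probes brightest in embryos, the samples that shared an array with embryos had 0.04 to 0.15 and the others -0.08 to 0.05. For the head-brightest probes the 4 partners had 0.10 to 0.27 and the other 16 samples -0.10 to 0.09. For the head-brightest probes the ranges of sharing and other samples only just missed each other, at 0.0951 against 0.0931. The ranges did not overlap for the abdomen-brightest probes and overlapped for the embryo-brightest ones. The cause was not tested.

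Differences among the other 5 groups were tested next. The rule put a ceiling on each of these groups but did not set them against each other. The fit was 1 limma model over all 24 samples and all probes, with group means and dye, and only the 198 probes are described.

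Male abdomens against male pupae asked which head-brightest probes were also brighter in another part of the adult male than in the pupal male. Of the 198 probes 53 differed, with 46 (23.2%) higher and 7 (3.54%) lower in abdomens. Over all probes 15.4% differed, 10.6% higher and 4.81% lower. With the fit kept to probes brighter than the median probe, 56 of 185 members (30.3%) differed, against 25.6% of all. That brightness was a mean over all 24 samples, heads included. Some members passed only through their heads, since 39 of the 198 lay below the median probe in every other group. Nothing is read from this comparison. The median difference was 0.19 for the 198 and -0.02 over all probes. Abdomen replicates 2 and 3 shared arrays with heads. Without the 4 partners 38 probes were higher and 8 lower, against 9.14% and 2.71% of all probes, and all 38 were among the 46.

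The 46 probes had a median level of 9.58 in heads, 8.02 in abdomens and 6.81 in male pupae. The abdomen was their closest group in 45 of the 46, and 28 differed by at least 1. The 46 were chosen for abdomens brighter than male pupae, which favours abdomens as the closest group, so nothing is read from the 45. None of the 39 probes near the floor in all other groups was among them. The 39 were defined by low means in every other group, abdomens included, where the offset leaves little room for a rise. Nothing is read from their absence either.

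Probe 10523 had the largest such difference. It gave 9.41, 8.88, 9.15 and 9.49 in abdomens, against 6.65, 6.36, 6.11 and 6.40 in male pupae. The groups did not overlap, and the difference was 2.85 (SE 0.22, limma adjusted p = 1.92e-09). Embryos were high at this probe too, and heads gave 9.80, 10.17, 10.18 and 10.84.

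Probe 21518 gave 8.89, 9.28, 9.70 and 9.03 in abdomens, against 6.75, 6.99 and 7.02 in the 3 male pupal samples with an unmarked spot. The difference was 2.28 (SE 0.29, limma adjusted p = 6.25e-06), and 2.02 without the partners of heads (adjusted p = 0.000279). Its heads gave 11.39, 10.15, 10.24 and 10.09.

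Probe 9797 was the reverse and had the largest difference toward male pupae. It gave 6.75, 6.82, 6.86 and 6.59 in abdomens, against 9.47, 9.64, 9.75 and 9.36 in male pupae, a difference of -2.80 (SE 0.23, limma adjusted p = 5.09e-09). Female pupae gave 9.40, 9.17, 8.53 and 9.11 and mixed-sex pupae 9.86, 9.17, 9.10 and 9.78. Heads gave 11.52, 12.10, 11.27 and 12.17, so all 12 pupal samples lay between the heads and the abdomens. The neighbouring spot 9796, with 10.38 to 12.01 in heads, stayed between 5.88 and 6.30 in all pupal samples but the partner of a head, which had 6.81.

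The other 6 probes lower in abdomens differed by less. Probe 18487 gave 8.002, 8.84, 8.03 and 8.82 in abdomens, against 9.29, 9.52, 9.10 and 9.43 in male pupae, a difference of -0.91 (SE 0.18, limma adjusted p = 0.000828). Probe 18375 was near the floor in abdomens, at 6.16 to 6.30, and at 6.78 to 7.48 in male pupae, with a difference of -0.87 (SE 0.16, limma adjusted p = 0.00037). The last 4, at -0.46 to -0.82, were probes 1450, 13137, 588 and 4434, and probes 1450 and 588 did not pass without the partners (adjusted p = 0.0654 and 0.14).

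Embryos against mixed-sex pupae asked which of these probes varied with developmental stage outside the adult. Of the 198 probes 28 (14.1%) differed, with 19 (9.60%) higher and 9 (4.55%) lower in embryos. Over all probes 13.5% differed, 7.3% higher and 6.23% lower. Most head-brightest probes were brighter than the median probe when the heads were counted. With the fit kept to such probes, 31 of 185 members (16.8%) differed, against 23.9% of all. Some members passed this filter only through their heads, so nothing is read from these shares either. Embryo replicate 2 shared its array with a head. Without the partners of heads 11 probes were higher and 9 lower, and the median difference over the 198 probes was 0.01, against 0.12 with them. Over all probes 10.6% then differed, 5.54% higher and 5.08% lower. With scaling to the 75th percentile 11 of the 198 differed, 6 higher and 5 lower in embryos, and 7.34% of all probes.

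Probe 10523 led in this direction as well, with 8.49, 8.62, 9.68 and 9.42 in embryos, against 6.29, 6.40, 6.47 and 6.43 in mixed-sex pupae. The difference was 2.66 (SE 0.22, limma adjusted p = 9.64e-09). Female pupae lay at 6.17 to 6.95, so signal at this probe was high in heads, abdomens and embryos and low in all pupae. Probe 14571 gave 10.63, 10.54, 9.68 and 10.002 in embryos, against 8.78, 8.74, 9.78 and 8.83 in mixed-sex pupae, where replicate 3 overlapped the embryos. Its difference was 1.18 (SE 0.21, limma adjusted p = 0.000293).

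Probes 9797 and 16573 were lowest in embryos relative to mixed-sex pupae. Probe 9797 gave 6.69, 7.05, 6.31 and 6.39 in embryos, a difference of -2.87 (SE 0.23, limma adjusted p = 6.3e-09). Probe 16573 gave 7.83, 9.14, 8.32 and 8.41 in embryos, against 10.51, 10.62, 10.67 and 10.55 in mixed-sex pupae, a difference of -2.16 (SE 0.21, limma adjusted p = 1.62e-07). This probe was at 12.36 to 12.54 in heads and 10.05 to 11.05 in abdomens, so embryos were the only group below 10. Embryos were also the lowest group at probe 12595, with means of 12.08 in heads, 10.42 in abdomens, 7.77 in embryos and 9.52 in mixed-sex pupae.

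In all, 13 of the 198 probes differed in both comparisons, 40 only between abdomens and male pupae, 15 only between embryos and mixed-sex pupae, and 130 in neither. These are 6.57%, 20.2%, 7.58% and 65.7% of the 198, and the shares over all probes were 6.23%, 9.2%, 7.3% and 77.3%. Abdomens and embryos both had partners of heads, and both comparisons come from 1 fit.

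**Figure D5:**
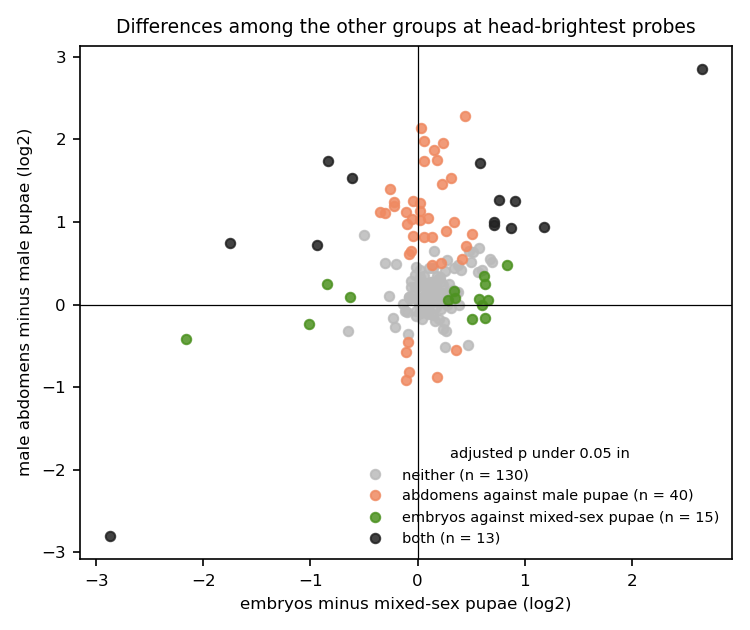
Difference between male abdomens and male pupae (vertical axis) against that between embryos and mixed-sex pupae (horizontal axis), in log2 signal, for the 198 head-brightest probes, coloured by the comparison in which the adjusted p was under 0.05. Most points lie near 0 on the horizontal axis, probe 10523 stands alone at upper right (2.66 and 2.85) and probe 9797 at lower left (-2.87 and -2.80).

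Female and male pupae were compared because the study asked about sex, while the heads came from males only. None of the 198 probes differed by the limma test with an adjusted p under 0.05, whereas 5.07% of all probes did, 0.656% higher and 4.42% lower in females. At an unadjusted p under 0.05 there were 13 of the 198 (6.57%), 12 of them higher in females, against 13.2% of all probes. The rule put a ceiling on both pupal groups. The median level of the 198 was 6.47 in female and 6.33 in male pupae, against 6.22 and 6.21 over all probes. Near the floor the offset leaves little room for a difference, so nothing is read from the lower shares among the 198, with or without the partners. The median difference was 0.12 for the 198 and 0.02 over all probes. Female pupae replicate 3 shared its array with a head. Without the partners the median was 0.07, and 0 of the 198 passed the limma test. Of the 198, 5 (2.5%) were then at an unadjusted p under 0.05, against 10.8% of all probes. At an adjusted p under 0.05, 4% of all probes passed, 0.27% higher and 3.73% lower in females. When arrays were fitted as a random block 2 probes passed, against 6.49% of all probes, and 1 passed without female pupae replicate 4. Probe 5284, the brightest of the 198 in pupae, had a difference of 0.31 (limma adjusted p = 0.783).

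The 2 dyes were balanced in each group, so the rule did not use them. The Cy3 minus Cy5 term passed at 19 of the 198 probes, 3 higher in Cy3 and 16 higher in Cy5. Over all probes 7.11% passed, 3.57% higher in Cy3 and 3.54% higher in Cy5. The direction hung on the scaling: with scaling to the 75th percentile 49 of the 198 passed, 42 higher in Cy3 and 7 higher in Cy5, when 66.1% of all probes passed. With the array as a random block 23 were higher in Cy3 and 30 in Cy5, when 24.7% of all probes passed. Probe 20111 had the largest difference toward Cy5, with 11.12 and 10.39 in the Cy3 heads, against 12.05 and 11.96 in the Cy5 heads. The dye difference over all groups was -0.75 (SE 0.17, limma adjusted p = 0.0122). Probe 3095 had almost the same values in heads, 11.004 and 10.15 in Cy3, against 11.95 and 11.56 in Cy5, and a dye difference of -0.63 (SE 0.16, limma adjusted p = 0.0188).

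Toward Cy3 the largest was probe 588, with 0.42 (SE 0.09, limma adjusted p = 0.0117), followed by probe 1048 with 0.30 (SE 0.07, limma adjusted p = 0.0142). Without the partners of heads only 4 of the 198 probes passed, 2 in each direction, when 2.98% of all probes did, 1.86% higher in Cy3 and 1.13% higher in Cy5. Of the 4 probes just named, only probe 588 then passed (adjusted p = 0.0443).

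A limma fit with a term for dye within heads called a larger dye difference in heads at 3 of the 198 probes. This direction is not independent of the choice of probes, which are bright in heads, since near the floor of the other groups the offset leaves little room for a dye difference. Over all probes 10 passed, or 0.0443%, 0.031% with the larger difference in heads and 0.0133% with the smaller one. Without the partners of heads 2 of the 198 passed, both larger in heads, against 0.0266% of all probes, 0.0133% in each direction. One of these was probe 6323 (limma adjusted p = 0.0493), while probes 1280 (0.0544) and 1048 (0.0876) did not pass. The other was probe 21909 (adjusted p = 0.0351), named after its value was seen. Probe 1280 gave 7.93 and 8.41 in Cy3 heads, against 7.13 and 7.39 in Cy5 heads, and the interaction was 0.86 (SE 0.14, limma adjusted p = 0.0135). Probe 1048 gave 8.54 and 8.80, against 7.77 and 7.83, with an interaction of 0.69 (SE 0.12, limma adjusted p = 0.0231). Probe 6323 gave 7.31 and 7.34, against 6.73 and 6.92, with an interaction of 0.51 (SE 0.07, limma adjusted p = 0.00443). At all 3 the other groups stayed near the floor, between 5.71 and 6.43. The count was 17 without head replicate 3, 7 without head replicate 2, 5 without embryo replicate 1 and 1 without head replicate 4. Shares over all probes are not given for these counts.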

How the data were processed

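Each deposited scanner table held 1 sample, with the signal intensity (mean and median), the intensity of the local background and a quality mark at every spot, per the file headers. What the marks mean is not stated. These intensities were not normalised by the authors. A further table deposited by the authors, used as an alternative, held natural log values of the background-subtracted mean signal. The scanner software is not given in the sources used here.

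In R 4.3.3 with limma 3.58.1, mean signal was corrected for median background (normexp, offset 50), marked spots (1338 probes in at least 1 sample) were dropped, and log2 values were quantile normalised over all 24 samples. No filter on dim probes was used. Group and dye were fitted by lmFit and eBayes with an intensity trend, over all probes, with the Benjamini-Hochberg adjusted p called at 0.05. Simulated data with known changes were used to test the code.

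The members, the rule for naming probes and the alternatives were chosen with earlier results of these data known. Named were the members with the largest margins, those beside the threshold, the largest changes in each test, and extremes of level, spread and likeness. The shared-array term and the fits without the 4 partners of heads were added after seeing the data. Alternatives were other scalings, backgrounds, offsets, blocks, thresholds and leaving out each sample. No gene list was tested, since no probe is tied to a gene.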

Additional observations from a re-analysis of the deposited data

Results flagged for a closer look

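Of 76 groups of 4 values examined for a single distant sample, 12 held one. Chance gives about 1 in 20, but this is no fair yardstick here, since some probes were named for their spread among heads, 9219 and 7505 among them. Of these 12, 7 were samples that shared an array with heads. Embryo replicate 2 stood at 7.25 at probe 20039, against 5.98 to 6.03 in the other embryos, at 7.55 at probe 5712 (5.90 to 6.17), at 6.81 at probe 5520 (6.02 to 6.13), at 7.90 at probe 9796 (6.15 to 6.24), at 7.78 at probe 19299 (6.33 to 6.40) and at 7.54 at probe 2263 (6.22 to 6.43). Female pupae replicate 3 stood at 7.19 at probe 20039, against 6.04 to 6.11.

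Among the heads, replicate 1 stood at 10.76 at probe 9219, against 5.89 to 5.94 in the other heads, at 10.23 at probe 7505 (6.25 to 6.49) and at 11.39 at probe 21518 (10.09 to 10.24). Head replicate 2 stood at 12.36 at probe 16573, against 12.54 in the other 3. Male pupae replicate 4 stood at 6.51 at probe 11882, against 5.90 to 6.01.

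The difference between Cy3 and Cy5 was larger in heads than in the other groups, by a test of that difference, at probe 1048 (0.69), probe 1280 (0.86) and probe 6323 (0.51). All 3 had the higher signal in both Cy3 heads. Without the samples that shared an array with heads, probes 1280 (adjusted p = 0.0544) and 1048 (0.0876) did not pass by limma and probe 6323 (0.0493) did. The choice of probes bright in heads favours this direction.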

How the results depend on the processing

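The list held 198 probes as reported and 190 to 212 when any 1 sample was left out. It held 128 with scaling to the 75th percentile, 325 with plain background subtraction, 349 with an offset of 10, 331 with the deposited natural log values, 520 with a margin of 0.5 and 57 with a margin of 2. The 325, 349 and 331 probes each included all 198, and the 128 included 127 of them. The other settings tried for the list gave 187 to 208. Counts of the 198 probes called between abdomens and male pupae (53) were 39 to 62 under all settings and 46 to 55 with 1 sample left out. Over all probes 11% were called at the setting that gave 39 and 14.9% at the one that gave 62. Shares over all probes are not given for any count with 1 sample left out. Between embryos and mixed-sex pupae (28) the counts were 22 to 31 with 1 sample left out. Otherwise they were 20 (10.6% of all probes) to 36 (13.8%). The exceptions were 11 with scaling to the 75th percentile (7.34% of all probes) and 14 at an adjusted p of 0.01 (9.09%). Between the sexes (0) the counts were 2 with the array as a random block (6.49%) and 0 to 1 with 1 sample left out. The dye term (19) was called at 49 with scaling to the 75th percentile, where 66.1% of all probes were called, and at 53 with the random block (24.7%). It was called at 4 without the partners of heads (2.98%) and at 1 at an adjusted p of 0.01 (0.642%). With 1 sample left out the count was 11 to 22 (12 without head replicate 4, 11 without abdomen replicate 2 or embryo replicate 4). The dye difference in heads against that elsewhere (3) was called at 116 with scaling to the 75th percentile, where 0.82% of all probes were called. It was called at 1 at an adjusted p of 0.01 or with only probes brighter than the median, each with 0.00886% of the probes fitted. It was called at 0 with plain subtraction, an offset of 10, the natural log values or the replicate block, with at most 0.00886% of all probes. With 1 sample left out it was called at 1 to 17. The shared-array term (12) was called at 1 with that scaling to the 75th percentile (0.00443% of all probes) and at 20 with the natural log values (0.0975%). It was called at 21 with plain subtraction (0.102%) or an offset of 10 (0.0975%), and at 7 to 19 with 1 sample left out. That scaling moved the median over all probes to 0.17 between the sexes, 0.11 between abdomens and male pupae and -0.24 for dye, and reversed the dye difference of probes 20111 (0.0498, adjusted p = 0.812) and 3095 (0.1554, adjusted p = 0.45). The cause of these shifts was not tested. Samples with the same replicate number deviated together no more than others (median correlation 0.02, range -0.83 to 0.72, over 60 pairs, against a median of 0.01 over 180 other pairs), so the numbers were not taken as pairs. Samples on the same array did deviate together (0.13 to 0.61, median 0.35, over 12 pairs). The reported fit leaves this out, and the random block for array takes it in. With a replicate block 50 of the 198 were called between abdomens and male pupae, when 3281 of all 22575 probes were. Between embryos and mixed-sex pupae 29 were called (2886 of all probes), and between the sexes 0 (1088 of all probes). The dye term was called at 14 (1288 of all probes). The dye difference in heads against that elsewhere was called at 0 (1 of all probes), and the shared-array term at 8 (8 of all probes). Dim Cy5 samples and the offset limit what can be seen near the floor.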

Other observations

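The 198 probes were spread over the array, in 94 of its 105 rows and 133 of its 215 columns. Above the middle of the array lay 41.9% of them and 49.5% of all spots, and left of its middle 48.5% and 49.8%. Only 10 of the 198 touched another member, among them spots 9796 and 9797.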
